A study of Mus musculus with 8 samples.

Results

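The genes described here are Ciita and 6 genes of the MHC class II pathway, Cd74, H2-Aa, H2-Ab1, H2-Eb1, H2-DMa and H2-Ob, in B3 mouse pre-B cells. Their members are accessible chromatin regions: every region with an ATAC-seq peak summit in the body of one of the 7 genes or within 20 kb of it (GRCm38, GENCODE release M21). This rule found 78 of the 174718 regions made by merging overlapping peaks of all 8 peak lists, and 32 of the 78 had a peak in every list. The H2 genes lie close together on chromosome 17, so a region could fall into the windows of several genes, and windows also held neighbours such as Brd2, H2-DMb2, H2-Eb2, Dexi, Clec16a and Tcof1.

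All cells were B3 cells transduced with Ikaros-ERt2, a fusion of Ikaros to a hormone-binding domain that enters the nucleus when 4-hydroxytamoxifen (4-OHT) is added, and the comparison asks how accessibility moved after that entry. Untreated cells (0 h) were set against cells that had 500 nM 4-OHT in the medium, at 30 min, 1 h and 2 h, and each time had 2 libraries. B3 is 1 line, and the labels do not say whether replicates were separate cultures, so p-values measure only the spread between these libraries. No vehicle is named for the untreated cells, so Ikaros and the drug with its solvent cannot be told apart. The lists held 85903 to 103897 peaks of short fragments (at most 120 bp, from nucleosome-free DNA). Of the B-lineage genes, Cd79a, Cd79b, Pax5, Ebf1, Igll1, Blnk and Cd22 had a peak within 1 kb of a start site in all 8 lists, and Vpreb1 had one in 4. Of 8 myeloid and dendritic genes, 5 (Csf1r, Itgam, Cd14, Zbtb46 and Xcr1) had none in any list, while Clec9a had one in all 8, Itgax in 2 and Lyz2 in both 0 h lists alone (91.6 and 87.9 percentile). Of 6 T-lineage genes, Cd3e, Cd3d and Cd8a had none, Lck had one in all 8 and Cd4 in 4. Cd3g had one in 7, at 21.2 percentile in 1 of the 0 h lists and at 88.5 and 89.0 at 2 h. The part of other cell types in the results was not tested.

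MHC class II molecules carry peptides from taken-up proteins to the cell surface for CD4 T cells. H2-Aa and H2-Ab1 encode the chains of I-A and H2-Eb1 the beta chain of I-E. Cd74, the invariant chain, holds their groove closed until H2-DMa and its partner H2-DMb exchange the remaining fragment for peptide, a step that H2-Ob with H2-Oa restrains. Ciita is the coactivator of these promoters. It binds no DNA itself and is recruited by RFX, CREB-family and NF-Y proteins on the X, X2 and Y boxes. Mature B cells express the pathway constitutively, and early B-cell precursors do so weakly or not at all.

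The sequences given here are of 2 kinds. The first is the 150 bases before annotated starts of class II genes, read from GRCm38 in the direction of transcription. They are printed because letters of the X box, the Y box or both stand in these accessible start-site regions. None of the start-site regions of the windows printed here was called, and that of H2-Eb2 lacked a peak in some lists and was not tested. Capitals mark the X box core (GCAAC or GTTGC), the X2 box core (TGACG or CGTCA) and the Y box core (ATTGG or CCAAT), each listed on both strands.
H2-Aa (chr17:34287824-34287973, minus strand): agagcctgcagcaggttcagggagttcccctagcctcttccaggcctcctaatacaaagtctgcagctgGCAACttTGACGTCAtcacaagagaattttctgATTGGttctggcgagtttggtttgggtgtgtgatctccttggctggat
H2-Eb1 (chr17:34305717-34305866, plus strand): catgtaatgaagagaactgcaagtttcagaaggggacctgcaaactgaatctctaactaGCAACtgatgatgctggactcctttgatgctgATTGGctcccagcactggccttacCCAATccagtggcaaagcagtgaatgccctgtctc
H2-Ob (chr17:34238753-34238902, plus strand): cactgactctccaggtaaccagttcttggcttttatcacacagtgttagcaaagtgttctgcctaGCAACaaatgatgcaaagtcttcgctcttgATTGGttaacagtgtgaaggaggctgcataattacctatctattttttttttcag
H2-Ab1 (chr17:34263059-34263208, plus strand): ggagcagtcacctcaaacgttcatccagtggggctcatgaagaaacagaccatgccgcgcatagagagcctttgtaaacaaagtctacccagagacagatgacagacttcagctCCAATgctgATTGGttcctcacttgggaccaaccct
H2-Eb2, a neighbour of H2-Eb1 (chr17:34325515-34325664, plus strand): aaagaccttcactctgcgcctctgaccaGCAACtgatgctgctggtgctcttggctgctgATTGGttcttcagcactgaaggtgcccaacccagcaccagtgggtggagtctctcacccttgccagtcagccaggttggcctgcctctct

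GCAAC was followed by ATTGG 28 bases on in H2-Aa, 27 in H2-Eb1, 25 in H2-Ob and 27 in H2-Eb2. Over 41220 annotated starts of protein-coding genes, 0.121% held GCAAC followed 20 to 30 bases later by ATTGG, a range chosen after these spacings were seen. Either X core stood in 18.9% of the same windows, either Y core in 25.03% and either X2 core in 15.5%. The H2-Aa window alone held overlapping X2 words. H2-Ab1 held a Y core in both orientations and no X core in these exact letters, and the windows before the first H2-DMa start and before the middle and downstream Ciita starts held no Y core. The window before the later H2-DMa starts (34135628 and 34135654) was not read. The 200 bp around the summit of the region there held 2 Y cores and no X core. The region just before the middle Ciita start also held 2 Y cores and no X core in its 200 bp.

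The second kind is the sequence of regions that fell after 4-OHT, with the Ikaros core words in capitals: GGAA, read as TTCC on the other strand, and GGGA, read there as TCCC. A GGGA can overlap a GGAA. Bases of annotated UTRs were left out.
Ciita intron (chr16:10508752-10509051, plus strand): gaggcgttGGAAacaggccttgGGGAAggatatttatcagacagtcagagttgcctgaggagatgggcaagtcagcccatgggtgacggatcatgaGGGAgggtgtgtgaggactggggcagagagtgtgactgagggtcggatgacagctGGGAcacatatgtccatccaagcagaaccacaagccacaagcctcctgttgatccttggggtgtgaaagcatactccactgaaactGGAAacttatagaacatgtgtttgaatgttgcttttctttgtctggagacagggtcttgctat
H2-DMb2 upstream start (chr17:34143094-34143306, plus strand): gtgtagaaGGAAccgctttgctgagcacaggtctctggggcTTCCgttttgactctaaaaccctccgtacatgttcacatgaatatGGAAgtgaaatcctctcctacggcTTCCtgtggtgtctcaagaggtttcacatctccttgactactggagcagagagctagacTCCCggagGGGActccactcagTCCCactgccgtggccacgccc
Brd2 intron (chr17:34117212-34117305, plus strand): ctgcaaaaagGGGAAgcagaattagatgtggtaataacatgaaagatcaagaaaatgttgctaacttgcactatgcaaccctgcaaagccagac

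In the 200 bp around the summit, UTR bases included, the Ciita intron had 2 core words, the H2-DMb2 start 5 and the Brd2 intron 10. The words are short and common: 96.7% of all 174718 regions had at least 1 in the same length of window, with a median of 4, and the 78 class II regions also had a median of 4.

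Among the 32 class II regions with a peak in every list, accessibility fell at a small number of places. At 2 h, 3 regions were lower than at 0 h and 0 were higher (limma on normal scores of the within-list rank of fold enrichment, Benjamini-Hochberg adjusted p under 0.01 over 47875 regions). These were the Ciita intron, the upstream start of H2-DMb2 and an intron of Brd2. The background was 4.71% lower and 2.28% higher among all 47875 regions. At 1 h, 1 region (the H2-DMb2 start) was lower and 0 were higher, beside 2.51% and 1.1% of all regions. At 30 min none was called in either direction, as for all regions (0% lower and 0% higher). By unadjusted p (under 0.05), 8 of the 32 differed at 30 min, 7 at 1 h and 8 at 2 h. That was 25% at 30 min, 21.9% at 1 h and 25% at 2 h, beside 19.4%, 30.4% and 34.5% of all regions. Both 2 h libraries lay above both 0 h libraries in percentile in 10 of the 32 (31.25%), beside 40.6% of all regions. They lay below in 10 (31.25%), beside 24.3%. Libraries that do not overlap are thus common and are given below as description. The share of all regions with every treated library on 1 side of 0 h was not computed. The median shift of the 32 regions was -0.60 percentile points at 2 h, beside 3.66 for all regions, and single regions ran from -55.3 to 46.9. A percentile is the share of a library's own peaks with a lower fold enrichment, and a normal score sets the rank among the 47875 regions on a scale whose unit is 1 SD.

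**Figure D1:**
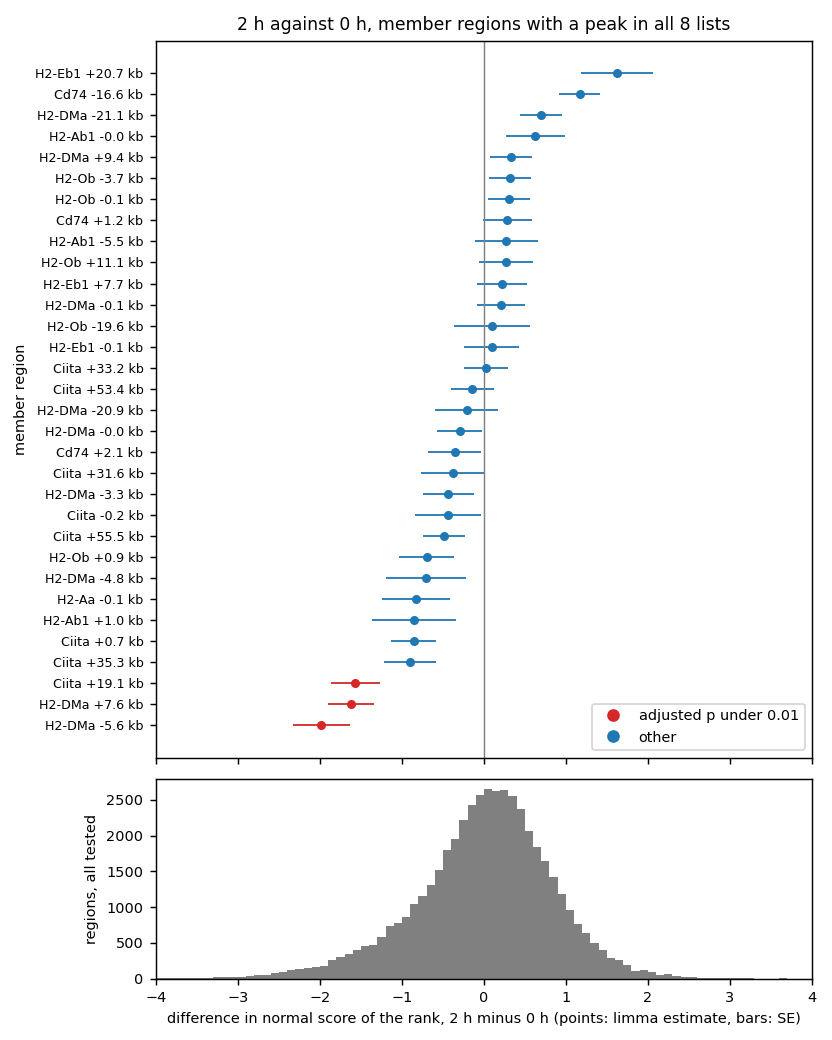
Each point is 1 of the 32 class II regions with a peak in all 8 lists, labelled by the nearest of the 7 genes and the distance of the summit from its start in kb, against the limma difference in normal score at 2 h minus 0 h (bars: SE). The 3 red points lie between -1.98 and -1.57. The histogram below counts all 47875 tested regions on the same axis.

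Ciita had 14 regions, 8 of them in every list, and 1 fell. The Ciita intron (chr16:10508752-10509051, summit 19104 bp past the nearest annotated start, in sequence shared with an intron of an overlapping Dexi transcript) had 61 and 37 fragments over its summit before treatment, then 35 and 25 (30 min), 17 and 19 (1 h) and 16 and 14 (2 h). The 0 h libraries were above all later ones, and the 30 min libraries lay between. Its percentile went from 95.7 ± 3.0 (SD, n = 2) at 0 h to 88.2 ± 5.9, 76.1 ± 2.6 and 72.5 ± 1.2. The fall was 1.57 ± 0.29 (SE) in normal score at 2 h (limma adjusted p = 0.0064), and on log2 summit fragments over background, centred on all regions, it was -1.85 ± 0.22 (limma adjusted p = 0.00034). At 1 h the difference was -1.41 ± 0.29 (limma adjusted p = 0.014) and missed the threshold.

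Ciita has alternative promoters, an upstream one used in dendritic cells and macrophages and later ones used in B cells and after interferon. No list had a peak within 1 kb of the most upstream annotated starts (10480059 and 10480164). The other starts had 2 regions. The one just before the middle start (chr16:10487920-10488219) had 36 and 20 fragments before treatment, then 22 and 26 (30 min), 19 and 14 (1 h) and 14 and 25 (2 h). Both 1 h libraries were under both 0 h libraries, and those of 30 min and 2 h overlap them. The difference at 1 h was -0.88 ± 0.40 in normal score and did not pass (limma adjusted p = 0.17). The other (chr16:10488789-10489148, 673 bp after the middle start and within 1 kb of the downstream starts) had 41 and 31 fragments before treatment, then 42 and 25 (30 min), 30 and 24 (1 h) and 20 and 18 (2 h). Both 2 h libraries were under both 0 h libraries, with percentiles of 85.3 ± 0.7 against 69.2 ± 2.7 (SD, n = 2). The difference of -0.86 ± 0.28 missed the threshold (limma adjusted p = 0.054), and passed it on centred log2 fragments (-1.09 ± 0.22, limma adjusted p = 0.0050). The start-site regions of the downstream neighbours Dexi and Clec16a, at 94.5 ± 2.6 and 86.0 ± 3.7 at 0 h, were at 94.1 ± 1.1 and 79.0 ± 0.1 at 2 h and were not called.

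Among 10081 protein-coding genes with a start-site region in all lists, the percentile of the Ciita region at +673 bp over the 8 libraries was most like those of Spats1 (Pearson r = 0.954), Akr1e1 (0.954) and Brms1 (0.953). The 8 points share their libraries, and this is a description without a test.

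**Figure D2:**
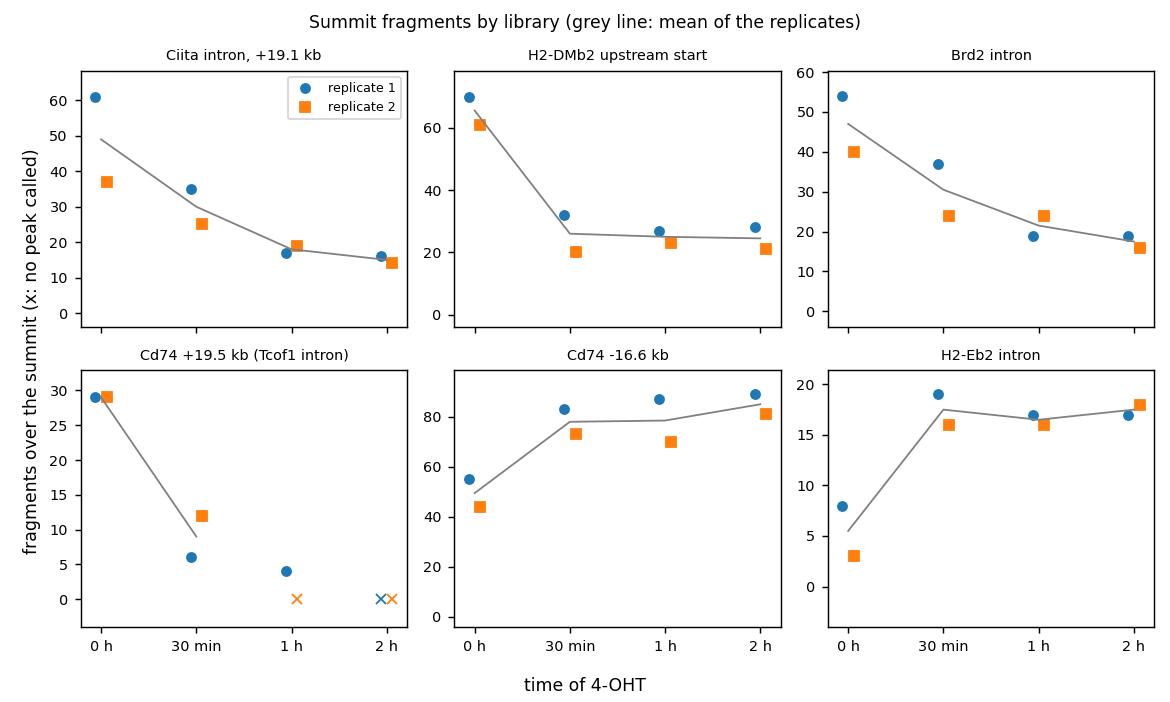
Fragments over the summit (vertical axis, linear) in each library at 0 h, 30 min, 1 h and 2 h for 6 regions; circles and squares are replicates 1 and 2, crosses mark lists without a peak and the grey line joins means. The Ciita intron, the H2-DMb2 upstream start and the Brd2 intron are highest at 0 h, the Cd74 +19.5 kb region has no peak at 2 h, and the Cd74 -16.6 kb and H2-Eb2 regions are lowest at 0 h.

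H2-DMa, the exchange factor's alpha chain, had 23 regions, 9 of them in every list, and both of its regions that fell lie at neighbouring genes. The upstream start of H2-DMb2, which encodes a beta chain of the same factor, is accessible in a region (chr17:34143094-34143367) with its summit 25 bp before the start at 34143307. It had 70 and 61 fragments before treatment, then 32 and 20 (30 min), 27 and 23 (1 h) and 28 and 21 (2 h). The 0 h libraries stood above all others, and the 30 min, 1 h and 2 h libraries overlap one another. Its percentile was 98.5 ± 0.1 at 0 h and 81.5 ± 8.6, 80.5 ± 3.9 and 81.1 ± 4.0 (SD, n = 2) after. The normal score difference was -1.53 ± 0.28 at 30 min (limma adjusted p = 0.028), -1.64 ± 0.28 at 1 h (limma adjusted p = 0.0060) and -1.62 ± 0.28 at 2 h (limma adjusted p = 0.0043).

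The downstream starts of H2-DMb2 (34145236 and 34145271) have their own region (chr17:34145003-34145180), and it did not follow. Its percentile was 27.4 ± 1.5 at 0 h, 60.1 ± 8.5 at 30 min, 63.1 ± 2.6 at 1 h and 44.4 ± 7.6 (SD, n = 2) at 2 h, every treated library above both 0 h libraries. No difference passed the threshold (limma adjusted p = 0.11, 0.040 and 0.40). Fragments were 13 and 10 before treatment against 13 and 10 after 2 h, and the centred fragment difference at 2 h was -0.18 ± 0.20, so the higher percentile at 2 h was in fold over local background and not in fragments. Reads shared with H2-DMb1, a close copy, cannot be placed with certainty.

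Brd2 encodes a bromodomain protein. The Brd2 intron region (chr17:34117119-34117305) has its summit 1249 bp past the nearest annotated Brd2 start, and another Brd2 start lies further upstream. It had 54 and 40 fragments before treatment, then 37 and 24 (30 min), 19 and 24 (1 h) and 19 and 16 (2 h). All later libraries were below the 0 h libraries. Its percentile went from 71.8 ± 3.4 to 16.6 ± 0.1 (SD, n = 2) at 2 h, the largest change in percentile among the 32 regions, and its score difference was -1.98 ± 0.35 (limma adjusted p = 0.0049). Local background is higher here: 19 and 16 fragments stood at the 16.6 percentile at 2 h, whereas 16 and 14 stood at 72.5 in the Ciita intron.

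H2-DMa itself showed no called change at its own starts. The first start (34122832) had a weak region for its depth (chr17:34122571-34122891) at 20.4 ± 5.9 percentile at 0 h and 16.3 ± 0.1 at 2 h, with 24 and 14 fragments against 20 and 17. The later starts (34135628 and 34135654) lay in one of the strongest regions of the genome (chr17:34135320-34135656), at 99.7 ± 0.4 and 99.9 ± 0.0 percentile, with 111 and 62 fragments before treatment against 100 and 96 after 2 h.

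The 3 falls at 2 h missed the threshold when a library of 0 h or 2 h was left out, which leaves 1 library in that group. Far fewer of all regions, or none, were called lower in those fits, so the misses are not particular to these 3. The Ciita intron also missed the threshold without either 1 h library. With 1 library left out, the difference at 2 h ran from -1.79 to -1.30 for the Ciita intron. It ran from -1.73 to -1.49 for the H2-DMb2 start and from -2.14 to -1.90 for the Brd2 intron. Directions held in all 15 other settings for each. By ranks among all peaks of a list, the Ciita intron missed the threshold with all libraries kept (limma adjusted p = 0.013). The H2-DMb2 start and the Brd2 intron passed it there (limma adjusted p = 0.0074 and 0.0081).

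At the genes for I-A and I-E, the start-site regions were present in all 8 lists, and none of the 4 tested regions of H2-Aa, 7 of H2-Ab1 or 4 of H2-Eb1, some of them shared, was called. H2-Ab1 (chr17:34263064-34263265, summit 47 bp before the start) had 16 and 16 fragments before treatment, then 25 and 24 (30 min), 36 and 18 (1 h) and 26 and 27 (2 h). Each treated library had more than either 0 h library in fragments, which are not scaled for depth. In fragments over background, the second 1 h library (57.7) was below the second 0 h library (61.5). It was also below that library in percentile. The percentile was 64.8 ± 8.7 at 0 h and 83.6 ± 3.1 (SD, n = 2) at 2 h, a difference of 0.62 ± 0.36 in normal score (limma adjusted p = 0.25) that was 0.35 without the first 0 h library.

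H2-Aa (chr17:34287797-34287972, 68 bp before the nearest start) was weak, with 10 and 8 fragments before treatment against 6 and 8 after 2 h, and percentiles of 50.7 ± 1.8 and 30.2 ± 17.1 (limma adjusted p = 0.19). At this depth a difference of a few fragments is not detectable. H2-Eb1 (chr17:34305705-34305891, 72 bp before its start) had 19 and 17 fragments before treatment against 27 and 19 after 2 h, and its percentile of 80.1 ± 0.6 against 84.3 ± 6.2 was within the spread (limma adjusted p = 0.86). The H2-Ab1 and H2-Aa regions thus had differences of opposite sign, neither of which passed.

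The largest rise in percentile among the 32 regions was at H2-Eb2, a second I-E beta gene in the H2-Eb1 window. Its intronic region (chr17:34326405-34326685, 901 bp after the start) had 8 and 3 fragments before treatment, then 19 and 16 (30 min), 17 and 16 (1 h) and 17 and 18 (2 h). No treated library overlaps the 0 h libraries. The difference was 1.62 ± 0.44 at 2 h and missed the threshold (limma adjusted p = 0.030), and passed it on centred log2 fragments (1.65 ± 0.30, limma adjusted p = 0.0027). The size rests on the second 0 h library, the one with 3 fragments: without it the difference was 0.70 (limma adjusted p = 0.20), and with regions in at least 2 lists it was 0.71. The H2-Eb2 start-site region itself (chr17:34325477-34325795) had a peak in 1 of the 0 h lists (7 fragments), 1 of the 30 min lists (9), both 1 h lists (19 and 16) and both 2 h lists (21 and 24). This neighbouring region was singled out after its values were seen.

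**Figure D3:**
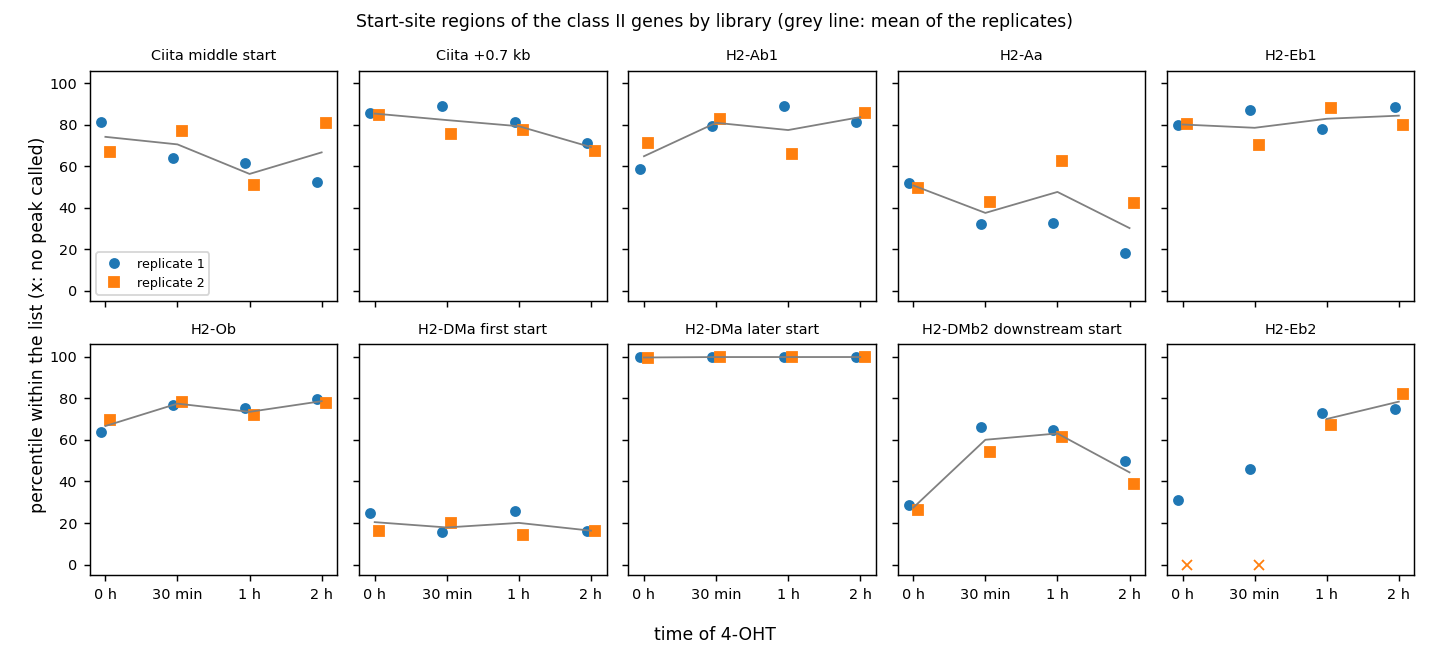
Percentile of fold enrichment within the list (vertical axis) by time of 4-OHT for 10 start-site regions; circles and squares are replicates 1 and 2, crosses mark lists without a peak and grey lines join means. The H2-DMa later start stays above 99, the H2-DMa first start stays under 26, and the Ciita +0.7 kb region goes from 85.3 to 69.2.

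H2-Ob, a subunit of the DM inhibitor, had 15 regions, 8 of them in every list, and none was called. Its start-site region (chr17:34238767-34238921) had 26 and 23 fragments before treatment, then 40 and 36 (30 min), 40 and 33 (1 h) and 43 and 36 (2 h), with all treated libraries above 0 h. The percentile was 66.7 ± 4.2 at 0 h and 78.7 ± 1.4 (SD, n = 2) at 2 h, and the score difference of 0.31 ± 0.26 did not pass (limma adjusted p = 0.43) and was 0.14 without the first 0 h library. The largest fall in percentile in the H2-Ob window was 972 bp into H2-Ab1 (chr17:34264135-34264271), from 62.7 ± 21.3 to 44.2 ± 0.4 (limma adjusted p = 0.27), within the spread at 0 h.

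Cd74 had no peak within 1 kb of its start (60803848 on chromosome 18) in any list. Its nearest region in all lists had its summit 1153 bp after the start (chr18:60804970-60805062), with 13 and 9 fragments before treatment against 11 and 16 after 2 h. The stronger intronic region at 2074 bp (chr18:60805781-60806048) had 50 and 44 fragments before treatment, then 49 and 45 (30 min), 42 and 26 (1 h) and 31 and 46 (2 h), and its percentile of 91.3 ± 2.8 against 86.8 ± 8.6 was within the spread (limma adjusted p = 0.47).

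The region at -16614 bp from the Cd74 start (chr18:60787131-60787365) was among the strongest at every time. It had 55 and 44 fragments before treatment, then 83 and 73 (30 min), 87 and 70 (1 h) and 89 and 81 (2 h), all treated libraries above 0 h. Its percentile went from 97.4 ± 0.9 to 99.9 ± 0.0. The score difference at 2 h, 1.17 ± 0.25, just missed the threshold (limma adjusted p = 0.011). With regions in at least 2 lists it passed (limma adjusted p = 0.0090), and on centred log2 fragments, where the difference was 0.60 ± 0.19, it did not (limma adjusted p = 0.041). It is named for lying next to the threshold.

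Presence of peaks gave a second view, without a test, since 2 lists against 2 cannot go below p = 0.333 in an exact permutation test. Of 41 class II regions with a peak in both 0 h lists, 2 were lost (a peak in neither list) at 30 min, 3 at 1 h and 5 at 2 h. The background among 69814 such regions was 10.9%, 14.6% and 16.6%, against 4.88%, 7.32% and 12.2% for the class II regions. Of class II regions with a peak in both lists of the later time, 4 of 43, 6 of 45 and 7 of 45 were gained (a peak in neither 0 h list), which is 9.3%, 13.3% and 15.6%. The background for gains was 10.3%, 17% and 20.5%. Each class II share lay below its background, a difference that was not tested.

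Of the 5 regions lost at 2 h, 3 were in the Cd74 window. The strongest was 19540 bp after the Cd74 start (chr18:60823253-60823517), in an intron of Tcof1, a ribosome biogenesis gene. It had 29 and 29 fragments at 0 h, 6 and 12 at 30 min, 4 fragments in 1 of the 1 h lists and no peak in the other, and no peak at 2 h. The region at -14441 bp from the Cd74 start (chr18:60789357-60789489) had 16 and 9 fragments at 0 h and no peak in any later list. The region at -10637 bp (chr18:60793159-60793290) had 11 and 4 fragments at 0 h, 7 in 1 of the 30 min lists, and no peak after.

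The other named loss was in the H2-DMa window (chr17:34129347-34129516), with 8 and 6 fragments at 0 h and no peak later. When regions in at least 2 lists were tested with absent peaks ranked lowest, the Ciita intron and the Brd2 intron no longer passed at 2 h (limma adjusted p = 0.012 and 0.014); no p is given for the losses, since their choice fixed the direction. The weakest peaks of each list had 3 or 4 fragments, so a lost peak can still hold some fragments, and more where local background is high.

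A Cd74 intron region (chr18:60807361-60807559, singled out after its values were seen) kept a peak in 7 lists while its fragments went from 35 and 23 at 0 h to 14 and 11 at 1 h and 13 in 1 of the 2 h lists. Other regions with a peak in 7 lists, also seen beforehand, rose. H2-Aa -5956 bp had 7 fragments in 1 of the 0 h lists and 15 and 19 at 2 h. H2-Ob +10028 bp had 5 in 1 of the 0 h lists and 14 and 22 at 2 h. The remaining such regions, H2-DMa -13232 bp and -1800 bp, had fewer fragments or no peak at 2 h. The named gains were weak. H2-Aa (chr17:34285992-34286168, an intron) had no peak at 0 h, 9 fragments in 1 of the 30 min lists, then 5 and 10 (1 h) and 15 and 11 (2 h). The gains at H2-DMa +4861 bp (12 and 8 fragments at 2 h), H2-Ab1 -11419 bp (8 and 7), H2-Eb1 -904 bp (6 and 8) and H2-Eb1 +24133 bp (8 and 7) were no stronger.

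**Figure D4:**
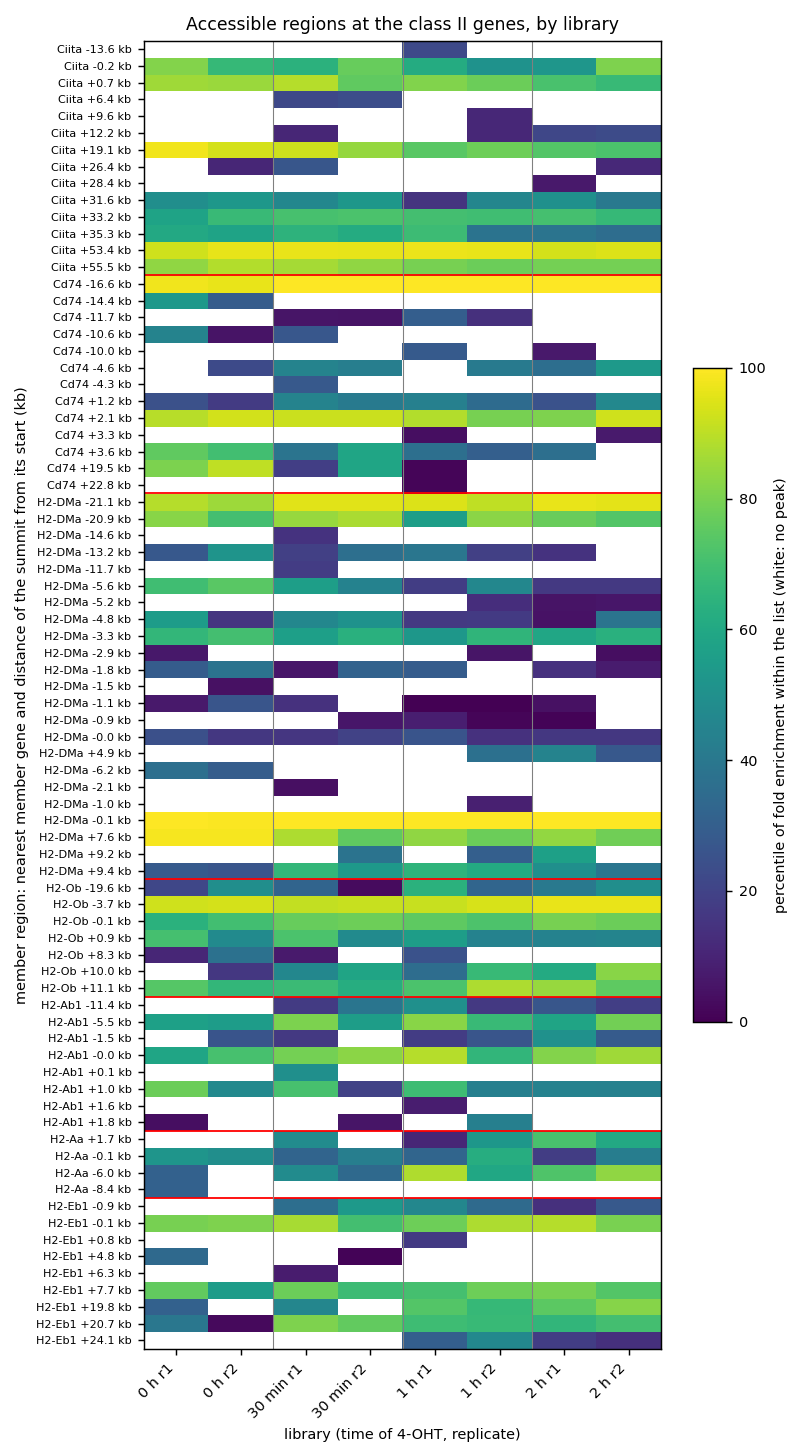
Each row is 1 of the 78 class II regions, in genomic order within the gene whose start is nearest, and each column 1 library; colour gives the percentile of fold enrichment within the list and white means no peak. Rows without gaps are the 32 regions in every list, and the remaining rows are mostly dark.

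Other genes of the pathway were read in the same windows. The counts of falls below stand beside 4.71% of all 47875 regions lower at 2 h, and no list was tested against that share. Of 19 tested regions of class II partners (H2-Eb2, H2-DMb1, H2-DMb2, H2-Oa), 1 fell at 2 h, the H2-DMb2 start already described, and 8 of the 19 are shared with the regions above. Of 32 tested regions at the genes of the promoter-binding complex, 1 fell, near Nfya, an NF-Y subunit (chr17:48428104-48428571, in an intron of Apobec2), from 90.1 ± 0.3 to 36.5 ± 2.6 percentile (limma adjusted p = 0.0018). Of 34 tested regions at genes that regulate Ciita, 1 fell, an intron of Irf8, a transcription factor of B and myeloid cells (chr8:120747307-120747642), from 96.2 ± 2.4 to 46.0 ± 24.8 (limma adjusted p = 0.0022). Its fragments were 66 and 60 before treatment against 19 and 9 after 2 h.

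Prdm1, a repressor of Ciita in plasma cells, had a start-site region (chr10:44458551-44458851) at 37.5 ± 2.0 at 0 h and 81.4 ± 2.6 at 2 h, which missed the threshold (limma adjusted p = 0.040). Of 27 tested regions at processing genes 2 fell. One lies in an intron of March1, the ligase that removes class II from the surface (chr8:66410271-66410557), from 84.8 ± 2.8 to 21.9 ± 8.0 (limma adjusted p = 0.0012). The other lies near Lgmn, a lysosomal protease (chr12:102450337-102450579), from 79.8 ± 3.6 to 20.8 ± 21.4 (limma adjusted p = 0.0040). In these 6 lists no region was called higher at any time, beside 1.1% of all regions at 1 h and 2.28% at 2 h.

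Of 46 tested regions at MHC class I genes, which present peptides from inside the cell and share 2 regions with the class II windows, 1 fell at 2 h. The share for class II was 3 of 32 and that for all regions 4.71%, and the shares were not tested against each other. The class I region that fell lies in Psmb8, an immunoproteasome subunit (chr17:34197617-34197842), from 75.3 ± 0.9 to 24.9 ± 0.6 percentile (limma adjusted p = 0.0048). None of the 11 tested regions at the costimulatory genes was called. The largest shift there was at -401 bp from the Cd40 start (chr2:165055048-165055392), from 70.5 ± 6.3 to 32.4 ± 8.6 (limma adjusted p = 0.044).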

How the data were processed

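Omni-ATAC-seq libraries of B3 cells were analysed as 8 deposited peak lists. Per the labels and methods, the authors processed reads with bcl2fastq 2.20.0, BWA 0.7.17, SAMtools 1.9, bedtools 2.27.1 and deepTools 2.3.5, kept shifted fragments up to 120 bp and called peaks with MACS2 2.1.2 on each library alone. The methods name a human build; the labels name GRCm38, in which no peak passed a chromosome end. The deposited values are the fold enrichment ratio over local background at the summit, −log10 p and −log10 q, a score not used here, and the summit offset. Sequence came from NCBI GRCm38.p6. The H2 haplotype of B3 is not given in the sources used here, and reads were placed on the reference haplotype.

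Fragments over the summit were recovered from fold and −log10 p, whole in at least 99.9% of peaks (−log10 p matched within 0.0002 of 1 plus its value); they are not independent molecules. Recovered backgrounds were 0.26 to 0.405 fragments per base, so precision is set by 11 to 14 fragments at a median peak. Summit fragments are printed without scaling for depth, and the second 0 h library had the lowest background. Peaks were merged by overlap. The normal score of the within-list rank was fitted with limma 3.58.1 (R 4.3.3) over all 8 libraries with time as the factor, on 47875 regions with a peak in every list; the fit was tested on simulated data. Alternatives were rank by −log10 p, log2 fragments, stricter q, lists of equal length, other windows and leaving out each library. Replicate numbers did not pair the samples. Regions were named by rule: start-site regions, called regions, losses and gains at 2 h with a mean percentile of at least 25 over all libraries that have the peak, and the largest fall and rise per gene; exceptions are marked. Members and lists were chosen with earlier results of these data known. One B-lineage marker is not reported here.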

Additional observations from a re-analysis of the deposited data

How the results depend on the processing

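With all libraries, 2256 of 47875 regions were lower and 1092 higher at 2 h. Without any 1 library of 0 h or 2 h, which leaves 1 library in that group, far fewer or none were called in either direction. The cause was not tested. Lower at 2 h: 3, but 1 in gene bodies only, 2 by ranks among all peaks, and 4 by fragments centred or not, in at least 2 lists and within 50 kb. The 4 in at least 2 lists do not include the Ciita and Brd2 introns. Higher at 2 h: 0, but 1 by ranks among all peaks, by fragments centred or not, in at least 2 lists and with a trend and robust prior, 2 at adjusted p under 0.05, 0 to 1 with 1 library left out. Lower at 1 h: 1, but 0 by ranks among all peaks and in gene bodies, 3 by fragments centred or not and at adjusted p under 0.05, 4 in at least 2 lists, 2 at −log10 q of at least 5 and with the trend, 0 to 1 with 1 library left out. Higher at 1 h: 0, but 1 by fragments centred or not and with the trend, 3 at 0.05. At 30 min, lower was 0, but 1 by fragments centred or not, with the trend and at 0.05; higher was 0, but 1 by uncentred fragments and with the trend, and 2 at 0.05. The replicate block (correlation of replicate differences 0.017 to 0.040) left 3 lower at 2 h and 1 at 1 h and changed no other count; over all regions it called 1905 lower and 860 higher at 2 h.

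Lost at 30 min, 1 h and 2 h (2, 3, 5) became 0 at 30 min and 3 at 2 h at −log10 q of at least 5, 4, 6 and 11 within 50 kb, 1, 1 and 2 in gene bodies, and 2 to 5, 3 to 6 and 5 to 8 with 1 library left out. Gained (4, 6, 7) became 3 at 1 h at the stricter q, 8, 10 and 12 within 50 kb, 2, 3 and 4 in gene bodies, and up to 12, 12 and 11 with 1 library left out. With every list cut to the length of the shortest, 3, 4 and 7 were lost and 3, 4 and 5 gained. Gains thus outnumbered losses at 2 h with the full lists and not with lists of equal length. The median percentile shift in gene bodies was -5.86 at 1 h and -4.50 at 2 h. With 1 library left out, the median shift ran from -0.60 to 2.98 at 30 min and from -1.29 to 0.94 at 2 h (the last without the first 2 h library). The cause was not tested.

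Differences of named regions that changed sign, none past the threshold, were at the H2-DMb2 downstream start (-0.18 and -0.039 on fragments) and, over the fits that leave out 1 library, at Ciita +33218 bp (-0.21 to 0.19), the later H2-DMa start (-0.16 to 0.57), H2-Eb1 (-0.11 to 0.32), Cd74 +1153 bp (-0.025 to 0.69) and Cd74 +2074 bp (-0.75 to 0.045). The at-least-2-list and trend fits of single regions were chosen after seeing the data.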
